A study of Mus musculus with 3 samples.

Results

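Lars2 and the ribosomal RNA entries are 6 of the 55536 genes in the deposited gene tables: Lars2, mt-Rnr1, mt-Rnr2, Gm26917, Gm42418 and Gm15564. They were chosen by name after earlier results of these libraries were known, to ask whether Lars2 moves with the ribosomal RNA entries from library to library and between quantifications, and in which transcript. Their values are therefore given as a description, without tests. Total RNA came from T cells (CD3 is named in the labels) of the spleen of female B6CASTF1/J mice, the cross of a C57BL/6 mother with a CAST/EiJ father, at 66 days of age. All 3 libraries belong to 1 group with no treatment or control, each from 300 ng of RNA with synthetic spike-in transcripts and, per the name of the spike-in profile, with ribosomal RNA reduced. The labels give 3 biosample records under 1 donor record, so it is not known whether they are separate animals, and an SD here may hold technical spread only.

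Ribosomes are built on ribosomal RNA, which makes up most of the RNA of a cell. Cytoplasmic ribosomes carry 18S, 5.8S and 28S RNAs, cut from 1 long precursor made by RNA polymerase I, and 5S RNA made separately. Mitochondria keep ribosomes of their own, whose small and large subunit RNAs are encoded in the mitochondrial genome by mt-Rnr1 and mt-Rnr2 and cut from a shared precursor transcript. Lars2 is a nuclear gene for the mitochondrial leucyl-tRNA synthetase, the enzyme that joins leucine to its tRNA inside mitochondria, while Lars encodes the cytoplasmic enzyme.

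Each library was quantified in 2 ways by the authors. The first quantification (a gene table and a transcript table) was made from alignments to transcripts, and the second directly from the reads with a transcript index. Totals were 15.04 to 16.93 M estimated counts in the first quantification. TPM is abundance corrected for effective length and scaled to the same total in every library. Summed levels of the 6 T-cell markers (Cd3e, Cd3d, Cd3g, Trac, Trbc2 and Lck) were 2050 to 2215 TPM, all 6 above 100 TPM, against sums of 9.91 to 16.5 TPM for 5 B-cell markers, 23.7 to 29.3 TPM for 5 monocyte and macrophage markers and 0.21 to 1.32 TPM for 3 platelet markers.

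The annotation gives a ribosomal RNA biotype to 2 of the 6 entries. On mm10, mt-Rnr1 (chrM:70-1024, plus strand) and mt-Rnr2 (chrM:1094-2675, plus strand) have the biotype of mitochondrial rRNA. Gm26917 (chr17:39843013-39846341, plus strand) and Gm42418 (chr17:39846958-39848788, plus strand) are annotated as long intergenic non-coding RNAs, 616 bases apart. RefSeq (GRCm38.p6) places between and across them Rn18s-rs5, an 18S ribosomal RNA pseudogene for which it lists Gm42418 as a synonym. That pseudogene starts 12 bases after the end of Gm26917 and covers 1245 of the 1831 bases of Gm42418. Gm15564 (chr16:35966752-35983230, minus strand) is annotated as an antisense RNA. Lars2 (ENSMUSG00000035202.8, chr9:123366927-123462666, plus strand) is protein coding.

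Lars2 and Gm15564 were the only pair of the 6 that shared a run of 31 bases, on either strand. The shared run is 52 bases long and lies on the same strand in both. In Lars2 it covers bases 3138 to 3189 of transcript Lars2-209 (chr9:123462048-123462099), in exon 21, the last one. In Gm15564-202 it covers bases 179 to 230, and all but its first base fall in exon 2. These sequences, from the transcripts of GENCODE M21 on mm10, are shown because no other pair of the 6 shares any. Exon 2 of Gm15564-202 is shown whole, with the unbroken run identical to Lars2 in capitals. Of the 20 bases in lower case, 19 are also identical and 1 differs. Beneath it are 30 bases of the same run in Lars2, from base 3139 of Lars2-209 on, all of them identical.
Gm15564-202, exon 2 (chr16:35981725-35981795, minus strand): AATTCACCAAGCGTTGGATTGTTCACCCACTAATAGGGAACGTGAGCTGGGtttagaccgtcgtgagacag
Lars2, exon 21 (chr9:123462049-123462078, plus strand): AATTCACCAAGCGTTGGATTGTTCACCCAC

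An alignment with mismatches allowed extended the match to 72 bases at 98.6% identity, with 1 mismatch. Of the 9 Lars2 transcripts, 2 hold the run, Lars2-201 and Lars2-209, and it lies in the 3′ UTR of both. One entry outside the 6 holds words of the same run, AA474408 (chr7:110057987-110061325, minus strand), which is annotated only as a transcript to be experimentally checked. AA474408 and Lars2-209 share identical runs of 41, 34 and 41 bases, all in exon 21 of Lars2, between bases 3032 and 3173. How far any of these runs resemble nuclear ribosomal RNA was not tested, since no sequence of that RNA was used here.

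**Figure D1:**
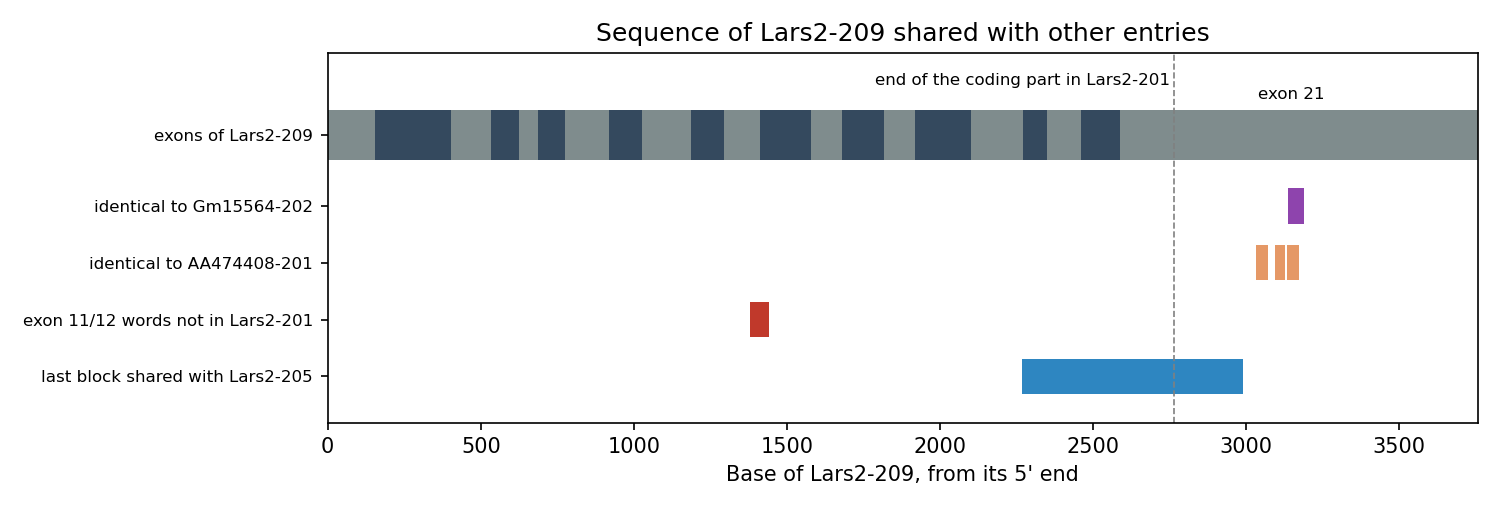
Transcript Lars2-209 drawn to scale along its 3756 bases (x axis), with its 21 exons in alternating grey and, below, the runs identical to Gm15564-202 and AA474408-201, the part around exons 11 and 12 whose 31-base words are absent from Lars2-201, and the last block shared with Lars2-205. The runs shared with other genes lie after the end of the coding part of Lars2-201 (dashed line) and after base 2989, where the block shared with Lars2-205 ends.

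The other entries stood apart in sequence. All 925 of the 31-base words of mt-Rnr1 occurred in no other transcript. Of the 1552 words of mt-Rnr2, 42 also occurred in Gm20594, a protein-coding entry on chromosome 6 that was listed at 0 counts in the first quantification. Gm26917 shared no word with another gene. Gm42418 had 66 words of its own among 1801, and the other 1735 were shared, on the opposite strand, with CT010467.1, an entry of the rRNA biotype, or with AY036118. Reads from the shared words can be told apart only if counting used the strand, which the sources used here do not state. In the first quantification Gm42418 had 304327, 314563 and 310833 counts in replicates 1, 2 and 3. Their posterior SDs, given by the authors, were 0, 0 and 0.03 counts. CT010467.1 had 184, 130 and 176 counts there, and AY036118 had 0. The use of the strand was not tested.

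The chromosome 17 and mitochondrial entries were the most abundant of the 6 and nearly level across libraries. Gm26917 had 45854, 43636 and 43982 TPM in replicates 1, 2 and 3, or 12.2%, 11.8% and 12.1% of all gene counts. Gm42418 had 10324, 11792 and 10544 TPM, or 1.94% ± 0.149 of counts (SD, n = 3). The small subunit RNA mt-Rnr1 had 23652, 26060 and 25184 TPM. Replicate 1 was the lowest for Gm42418 and mt-Rnr1 and the highest for Gm26917. The large subunit RNA mt-Rnr2 had 23897, 24871 and 23904 TPM. Together the 6 entries took 19.6%, 20.1% and 20.0% of the gene counts.

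Lars2 was far less abundant and uneven. It had 164, 356 and 197 TPM in replicates 1, 2 and 3, from 10131, 20009 and 12176 estimated counts, a mean of 239 ± 103 TPM (SD, n = 3). Replicate 2 was 1.97 times the mean of the other 2 libraries, which lay close together. Gm15564 was near the limit of detection, with 0.46, 0.37 and 0.78 TPM from 3, 2 and 4 counts. It was the only one of the 6 below a mean of 1 TPM, and no fold is given for it in this quantification. The order by mean TPM was Gm26917, mt-Rnr1, mt-Rnr2, Gm42418, Lars2, Gm15564. Only mt-Rnr1 and mt-Rnr2 had overlapping ranges, with log2 ratios of mt-Rnr1 to mt-Rnr2 of -0.01, 0.07 and 0.08.

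The range of an entry is its highest over its lowest TPM among the libraries. Lars2 had a range of 2.17-fold, against 1.14-fold for Gm42418, 1.10-fold for mt-Rnr1, 1.05-fold for Gm26917 and 1.04-fold for mt-Rnr2. So 1 of the 5 entries that passed a mean of 1 TPM reached 2-fold, where 8.5% of the 12723 genes that passed did and the median gene had 1.21-fold. Since low counts widen a range, the share among the 640 genes with a mean of at least 100 TPM is given too, and it was 1.41%, or 9 genes with Lars2 among them. Without replicate 2 the range of Lars2 was 0.26 on the log2 scale (1.11 with it), against a median of 0.17 over genes in the same 2 libraries. The rule selected Lars2 with these values in view, so its place among all genes is a description.

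Relative to the other entries, Lars2 was therefore highest in replicate 2 whichever one it was set against. Lars2 minus mt-Rnr1 was -7.17, -6.19 and -7.00 on the log2 TPM scale in replicates 1, 2 and 3, and Lars2 minus mt-Rnr2 was -7.18, -6.13 and -6.92. Lars2 minus Gm26917 was -8.12, -6.94 and -7.80, and Lars2 minus Gm42418 was -5.97, -5.05 and -5.74. The spread of these differences over the libraries, 0.92 to 1.19, lay on both sides of the 1.11 of Lars2 alone. Between the other entries the log2 ratios spread less. That of mt-Rnr1 to Gm26917 spread by 0.21 and that of Gm26917 to Gm42418 by 0.26. Summed marker levels of erythroid cells (Hba-a1, Hba-a2, Hbb-bs and Hbb-bt) were also highest in replicate 2, with 53.8, 96.4 and 42.2 TPM in replicates 1, 2 and 3, none of the 4 at 0. Their part in the Lars2 values was not tested, and neither was that of the B-cell markers, with 12.1, 16.5 and 9.91 TPM.

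**Figure D2:**
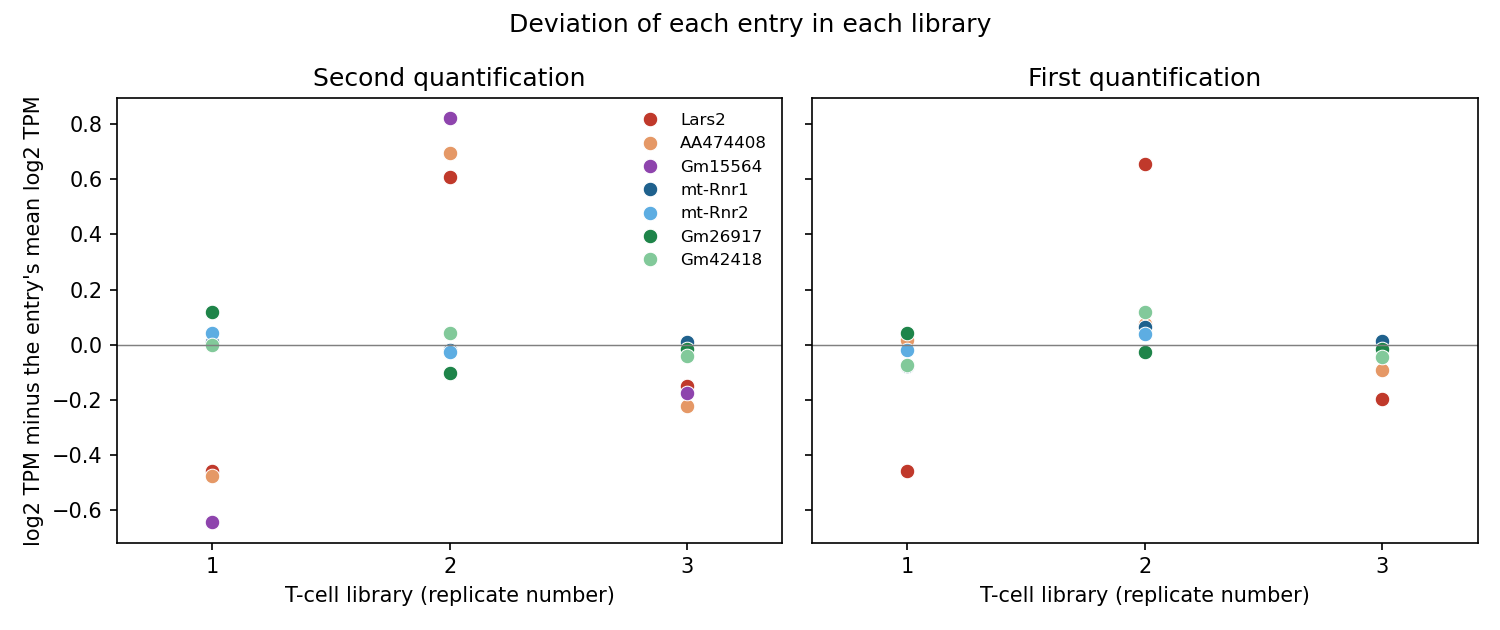
Deviation of each entry's log2 TPM from its own mean over the 3 libraries (y axis), by library (x axis), in the second quantification (left) and the first (right, without Gm15564, which had 2 to 4 counts there). In the first quantification Lars2 alone stands apart in replicate 2, at 0.66, while in the second Lars2, Gm15564 and AA474408 stand at 0.61, 0.82 and 0.70 and the other 4 entries stay within 0.12 of their means.

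In the second quantification the same libraries gave more counts to Lars2, and Gm15564 showed the Lars2 pattern. Lars2 had 24134, 48938 and 30235 counts in the second quantification, against 10131, 20009 and 12176 in the first. The log2 ratio of second to first counts was 1.28 ± 0.03 (SD, n = 3), or 2.44-fold, where the median gene had 0.17. Among the 12933 genes with at least 10 counts in every library of both, 3.41% were at least 2-fold higher in the second quantification, and Lars2 was 278th from the top. Among the 8773 genes with at least 100 counts it was 33rd, with 0.559% at least 2-fold higher.

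The other 4 entries stayed under 2-fold apart between the quantifications, and not all in one direction. The log2 ratio of second to first counts was 0.36 for Gm26917, 0.30 for Gm42418, 0.09 for mt-Rnr2 and -0.24 for mt-Rnr1, with SDs of 0.01 or less. By this ratio mt-Rnr1 ranked 12527th from the top of 12933 genes. Of the 5 entries with enough counts, Lars2 alone reached 2-fold higher and none reached 2-fold lower, where 0.611% of genes did. In TPM in place of counts the ratio of mt-Rnr1 turned positive, at 0.13, and as shares of the gene counts that of mt-Rnr2 turned negative, at -0.03.

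Gm15564 had 20.1, 49.4 and 27.2 counts in the second quantification, against 3, 2 and 4 in the first. In the second its level was highest in replicate 2, at 6.88, 19.0 and 9.52 TPM in replicates 1, 2 and 3, a range of 2.76-fold from few counts. Lars2 had a range of 2.09-fold there, where 10.4% of the 14470 genes that passed 1 TPM reached 2-fold. AA474408, chosen after its values were seen because it shares exon 21 sequence with Lars2, had 4664, 10451 and 5814 counts in the second quantification, against 84, 79 and 78 in the first. Its ratio, 81.8-fold, ranked 4th of the 12933 genes. Replicate 2 was again the highest of the 3 libraries in the second quantification, and in the first the 3 libraries lay within 1.12-fold in TPM.

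**Figure D3:**
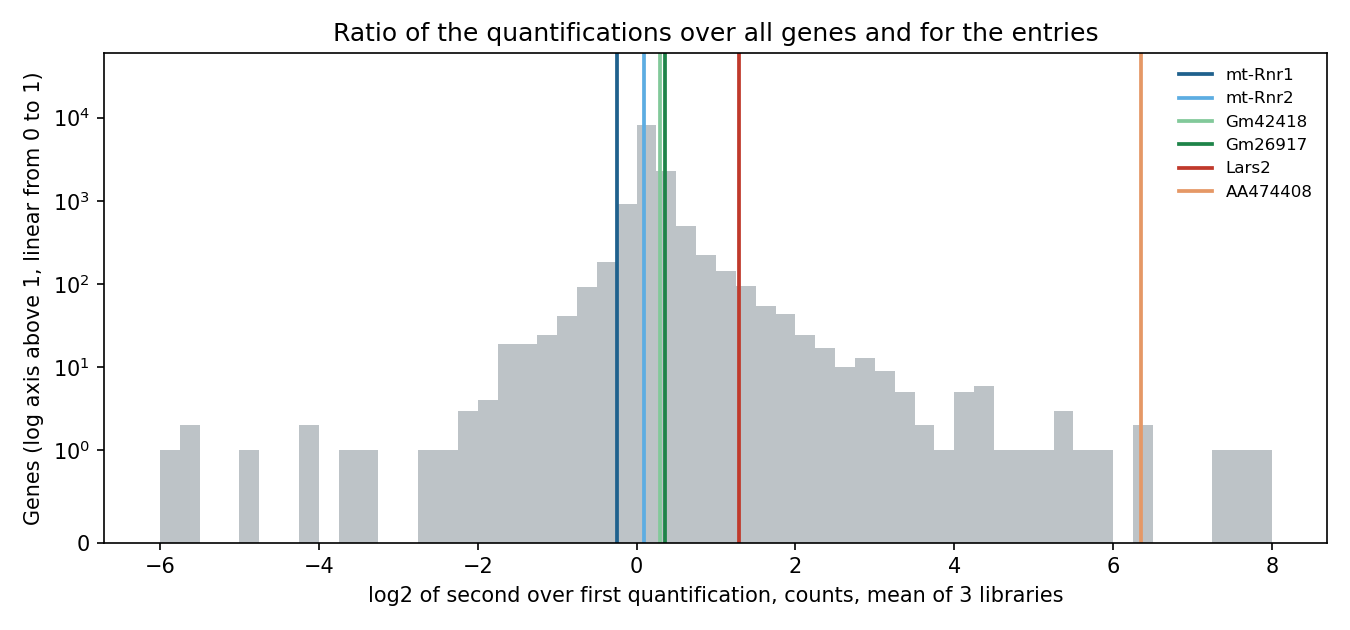
Number of genes (y axis, logarithmic above 1) by log2 ratio of the second to the first quantification in counts (x axis, mean of 3 libraries), for 12933 genes, with coloured lines at 5 of the 6 entries and AA474408. The mitochondrial and chromosome 17 entries lie between -0.24 and 0.36, with Lars2 at 1.28 and AA474408 at 6.35.

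By transcript, the Lars2 counts sat in Lars2-209. This transcript is annotated for nonsense-mediated decay, the pathway that destroys mRNAs with an early stop codon. It has 21 exons, as has the full protein-coding transcript Lars2-201. It starts 27 bases later in exon 1, its exon 11 is 4 bases longer, its exon 12 lacks the first 117 bases, and its exon 21 ends 2 bases later. The differing junctions of exons 11 and 12 are shown here, from chr9:123431976-123436263 for Lars2-209 and chr9:123431972-123436146 for Lars2-201, plus strand, with the intron left out. Capitals mark the 4 added bases in Lars2-209 and the start of exon 12 that only Lars2-201 has.
Lars2-209, exons 11 and 12: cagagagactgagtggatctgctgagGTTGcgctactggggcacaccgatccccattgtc
Lars2-201, exons 11 and 12: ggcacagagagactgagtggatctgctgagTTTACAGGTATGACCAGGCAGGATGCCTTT

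Only 35 of the 3726 words of Lars2-209 were absent from every other transcript, against 149 of the 3864 of Lars2-201. Lars2-209 nevertheless held 94.6% ± 2.75 of Lars2 TPM in the first quantification (SD, n = 3). Its estimated counts there were 9527, 19630 and 11428 in replicates 1, 2 and 3. Lars2-201 had 532, 333 and 686 counts, with posterior SDs given by the authors of 114, 109 and 128 counts. In the first quantification, then, replicate 2 was the highest library for Lars2-209 and the lowest for Lars2-201.

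All Lars2 transcripts other than Lars2-209 together, a sum added after the data were seen, had 604, 379 and 748 counts in the first quantification. Their level was 11.4, 7.79 and 13.7 TPM in replicates 1, 2 and 3, so that replicate 2 was the lowest, where the whole gene was highest there. In the second quantification the same sum was 1146, 2082 and 1714 counts, highest in replicate 2. Most of the counts added there were those of Lars2-205, a retained-intron transcript that ends before the run shared with Gm15564. Lars2-205 had 525, 1435 and 901 counts in the second quantification, against 2.03, 1.01 and 1.01 in the first. Lars2-201 had 538, 576 and 734 counts in the second quantification, against 532, 333 and 686 in the first. The share of Lars2-209 was 84.2% ± 1.65 in the second quantification, against 94.6% ± 2.75 in the first.

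**Figure D4:**
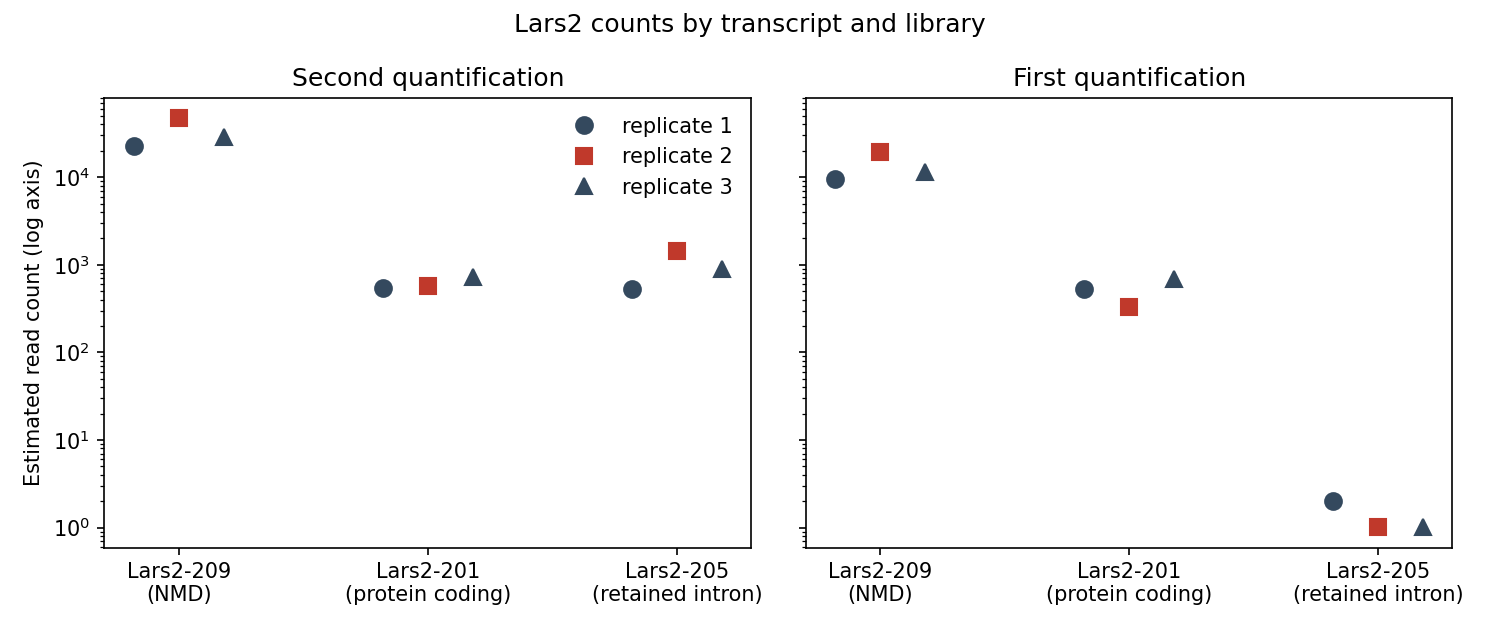
Estimated read counts (y axis, log scale) of 3 Lars2 transcripts in each library (symbols, replicate 2 in red). These 3 have the largest mean shares of Lars2 TPM in the second quantification (left). In the first (right), Lars2-205 has the smallest. Lars2-209 has 9527 to 46856 counts and is highest in replicate 2 on both sides, Lars2-201 has 333 to 734, and Lars2-205 has 525 to 1435 on the left and about 1 to 2 on the right.

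Gm26917 has 2 transcripts, and their split differed between the quantifications. Gm26917-202, a single exon of 3329 bases, held 96.0% ± 1.5 of Gm26917 TPM in the second quantification, against 75.2% ± 0.482 in the first. Gm26917-201 is spliced, and 812 of its 839 words also occur in Gm26917-202, so that 27, across its junction, are its own. That junction (chr17:39845111-39845473, plus strand, intron left out) is shown because those words alone mark it, with exon 2 in capitals.
Gm26917-201, exons 1 and 2: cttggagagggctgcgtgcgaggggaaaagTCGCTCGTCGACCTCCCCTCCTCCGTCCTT

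Gm26917-201 had 26961, 10500 and 22565 counts in the second quantification, against 146277, 127244 and 145664 in the first. Replicate 2 was the lowest for this transcript in both quantifications. Of the 3 transcripts of Gm15564, Gm15564-202, the one with the run shared with Lars2, held 17.1, 48.4 and 25.2 of its 20.1, 49.4 and 27.2 counts in the second quantification.

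Among the enzymes of its own pathway, Lars2 was set apart by its level. The list holds 21 genes for the other mitochondrial aminoacyl-tRNA synthetases and for the subunits that make mitochondrial glutaminyl-tRNA (Gatb, Gatc and Qrsl1). Gars and Kars serve both the cytoplasm and mitochondria. All 21 passed 1 TPM. The highest were Tars2 (threonine) at 42.2 ± 3.87 TPM, Kars (lysine) at 29.8 ± 0.743 TPM and Gars (glycine) at 29.7 ± 0.752 TPM. The lowest were Gatb at 2.66 TPM and Pars2 (proline) at 2.47 ± 0.567 TPM. The median was 7.06 TPM. Lars2 minus the list's median was 4.41, 5.63 and 4.82 on the log2 TPM scale in replicates 1, 2 and 3, a mean of 4.96 ± 0.62, or 31-fold. Without Lars2-209 the mean difference was 0.55 in the first quantification. None of the 21 had a range of 2-fold or more, where 8.5% of all genes did. Lars, for the cytoplasmic enzyme, had 19.3, 24.0 and 16.5 TPM in the first quantification and 25.3, 23.0 and 24.1 TPM in the second.

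**Figure D5:**
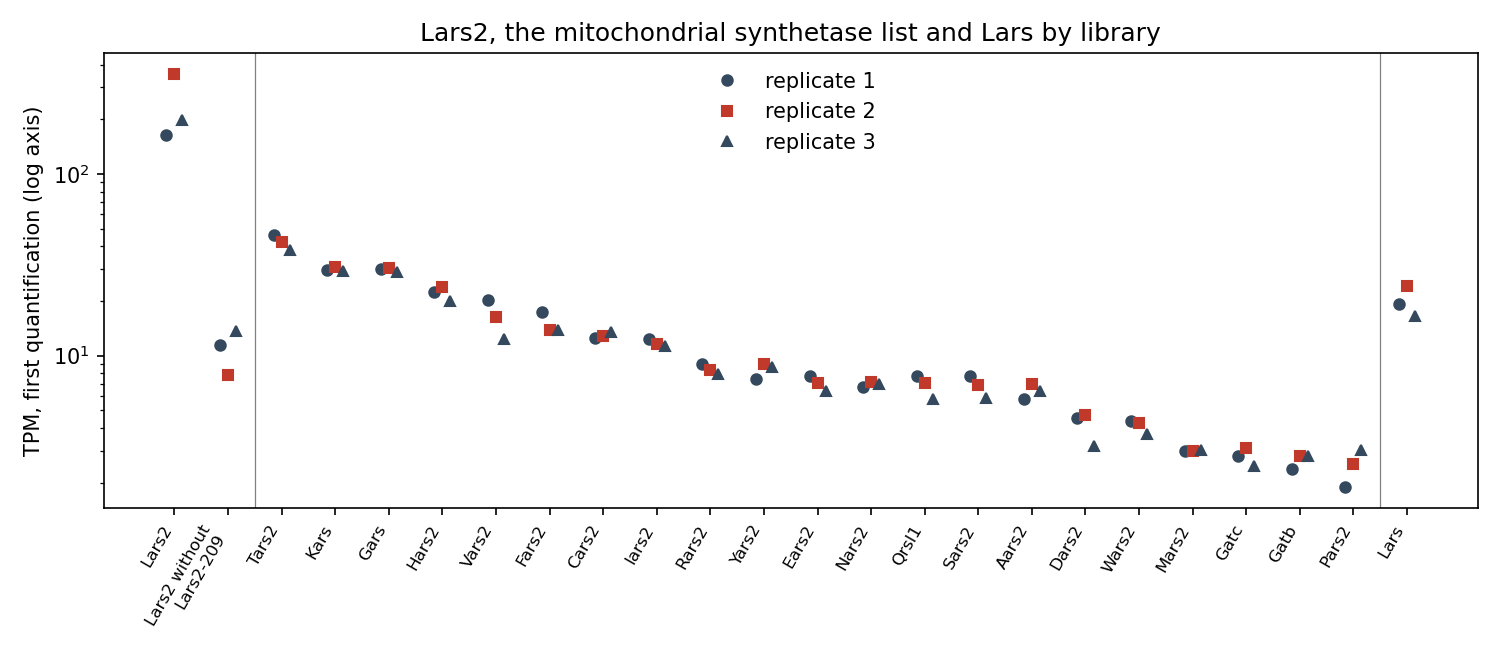
TPM of the first quantification (y axis, log scale) in each library (symbols, replicate 2 in red) for Lars2, Lars2 without transcript Lars2-209, the 21 genes of the mitochondrial synthetase list in order of their mean, and Lars. Lars2 lies at 164 to 356 TPM, above all 21, and at 7.79 to 13.7 TPM without Lars2-209, within the range of the list.

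Of 16 listed genes for mitochondrial transcription and rRNA modification, 15 were matched, and the symbol Era1 had no match. They ran from Mterf3, a regulator of mitochondrial transcription, at 26.7 TPM and Polrmt, the mitochondrial RNA polymerase, at 24.8 TPM, to Tefm, an elongation factor, at 2.18 TPM and Mrm2, a methyltransferase of the large subunit RNA, at 2.07 TPM. The 14 genes of RNA polymerase I and its factors ran from Taf1d at 118 TPM and Ubtf at 52.1 TPM to Taf1c at 7.04 TPM and Cd3eap, a polymerase I subunit, at 5.01 TPM. Taf1d, Taf1c and Ubtf are factors that act at the ribosomal DNA promoter. On the log2 scale the median range was 0.38 over the list for mitochondrial transcription and rRNA modification and 0.19 over that for RNA polymerase I, against 0.28 for the median gene. None of the genes of these lists had a range of 2-fold or more, against 8.5% of all genes.

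The 13 mitochondrial mRNAs come from the same genome as mt-Rnr1 and mt-Rnr2. They ran from mt-Co1, a subunit of cytochrome c oxidase, at 2411 TPM to mt-Nd6, a subunit of complex I, at 54.7 TPM. The summed TPM of the 2 mitochondrial rRNAs was 5.42, 5.40 and 4.97 times the summed TPM of the 13 mRNAs in replicates 1, 2 and 3. Ribosomal RNA was reduced in these libraries per the name of the spike-in profile, so the ratio need not hold in the cells. A range of at least 2-fold was reached by 8.5% of the genes that passed 1 TPM and by 1.41% of those with a mean of at least 100 TPM. Of the 13 mRNAs, 2 reached it, mt-Co2 and mt-Co3. Replicate 3 was the highest library for both, with mt-Co2 at 98.8, 0.03 and 260 TPM and mt-Co3 at 172, 163 and 431 TPM in replicates 1, 2 and 3. Neither had the pattern of Lars2. How reads were assigned to mt-Co2, which had 0.03 TPM in replicate 2, was not tested.

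Other entries annotated as ribosomal RNA held few counts. Of 354 genes with the rRNA biotype, 11 had any count in the first quantification. The 3 highest there were CT010467.1 with 184, 130 and 176 counts, Gm25447 with 18, 12 and 28, and n-R5s174, a 5S RNA entry, with 2, 2 and 1. In the second quantification CT010467.1 had 283, 258 and 307 counts. AY036118, on the strand opposite to Gm42418, was listed at 0 in every library of both quantifications. A count of 0 allows up to 3 counts, or 1.78e-05% to 2.00e-05% of the gene counts of a library, for counting error only.

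The genes with the profile most like each entry were found over 3 libraries, among 6483 genes with a mean of at least 10 TPM, by the Euclidean distance of log2 TPM centred on each gene. With 3 libraries such a likeness is loose, and many genes lie near a flat profile. Nearest to Lars2 were Gm9762, a processed pseudogene with 14.99, 32.02 and 18.32 TPM (distance 0.03), and Gm26165, a small nucleolar RNA entry with 29.4, 63.2 and 32.4 TPM (0.09). Neither shares a 31-base word with Lars2. The count of Gm9762 rested on shared reads, with posterior SDs of 23.0, 21.1 and 19.9 on 87.8, 170 and 107 counts. In the second quantification, Trav6-5 and Trav14-1, a pair of T-cell receptor alpha variable segments, were nearest to Lars2 (0.05 and 0.11), with AA474408 the third (0.11), among 7356 genes. Nearest to mt-Rnr1 in the first quantification were Gpbp1 and Tox4, to Gm26917 Kmt2c and Psap, and to Gm42418 Mapk6 and Cdk7, all within 0.01. For Gm15564, in the second quantification, they were Gm42566 (0.16) and AA474408 (0.21). Gm42566, which shares no 31-base word with Gm15564 or Lars2, had 276, 672 and 369 counts in the second quantification, against 0, 1 and 5 in the first.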

How the data were processed

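Estimated counts, TPM and FPKM per gene and transcript (the first quantification) were deposited by the authors, made from transcriptome alignments to mm10 with GENCODE M21 per the files' README. The deposited tables also give the posterior SD of the count and posterior mean TPM. The second table per transcript, also deposited by the authors, gives another set of estimated counts and TPM. Its README names reads and a transcript index of that annotation as the input, and its values were summed per gene here. The tools behind both are not stated in the labels or README. The isoform percentages the authors deposited per the file headers were not used, and shares were computed from TPM. The kit was directional per the labels. The members and lists were chosen with earlier results of these data known. Named were all 6 members and their transcripts, the highest and lowest genes of each list and the 2 nearest profiles per member. Those of mt-Rnr2 are not reported here. Others are named as chosen after their values were seen.

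Levels are means ± SD over 3 libraries in 1 group, so no comparison between groups and no test was made. Ranges used genes with a mean of at least 1 TPM, ratios of the quantifications genes with at least 10 counts in every library. Percentages of counts are shares of the gene total, without the 96 spike-ins. Pairs of libraries differed beyond sampling noise (chi-square per degree of freedom 4.20 to 5.25), so no library is a copy of another. Shared sequence was sought as identical 31-base words on both strands of all GENCODE M21 transcripts, and aligned with blastn 2.17.0. The computations were tested on simulated data. Counts were rounded for edgeR 4.0.16 (TMM) and DESeq2 1.42.0 (size factors), which gave alternatives only, with Python 3.11.15 and R 4.3.3. Other alternatives were FPKM, posterior mean TPM, TPM of nuclear protein-coding genes, counts per spike-in count, 1 TPM added, other filters and each replicate left out. Left out after the data were seen was transcript Lars2-209. Reads were assigned to 1 reference genome in the deposited tables, and parental alleles were not analysed here.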

Additional observations from a re-analysis of the deposited data

How the results depend on the processing

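No paired analysis was possible because the libraries form 1 group. Of 189 alternative values of 24 results, 135 moved by less than 1 SD over the libraries (for counts of genes, less than 1.5 times). Another 52 moved further and 2 changed sign, and the cause was not tested. Some alternatives could not move, so the tally is no measure of robustness. Scaling to nuclear protein-coding genes cancels in ratios between genes, and all count scales give the same ratio. Transcript counts of the first quantification summed to the gene counts, and all 21 synthetase genes passed 1 TPM. Without 1 replicate the log2 range was 0.26 (without replicate 2) to 1.11 for Lars2, 0.049 to 0.14 for mt-Rnr1, 0.00044 to 0.058 for mt-Rnr2, 0.011 to 0.072 for Gm26917 and 0.030 to 0.19 for Gm42418. In the second quantification the log2 range was 0.027 for mt-Rnr1, 0.22 for Gm26917 and 0.081 for Gm42418. For mt-Rnr2 it was 0.12 with TMM and 0.12 with DESeq2 size factors.

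On count scales (TMM, DESeq2 size factors and counts per spike-in count), which do not correct for length, Lars2 minus another entry was -4.70 for mt-Rnr1, -5.45 for mt-Rnr2 and -4.52 for Gm42418 (log2), and 5.82 against the synthetase list. In the second quantification these were -5.36, -5.50, -4.52 and 5.97, with -6.28 for Gm26917. Without Lars2-209, an alternative added after the data were seen, Lars2 minus the list was 0.55.

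The log2 ratio of the second to the first quantification was 1.55, 1.17 and 1.47 for Lars2 in TPM, as shares of the gene counts and per spike-in count. In the same order it was 0.13, -0.36 and -0.055 for mt-Rnr1, 0.31, -0.026 and 0.28 for mt-Rnr2, 0.22, 0.24 and 0.55 for Gm26917, and 0.49, 0.18 and 0.48 for Gm42418. So mt-Rnr1 in TPM and mt-Rnr2 as a share of the gene counts changed sign.

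The share of Lars2-209 was 84.2% in the second quantification, that of Lars2-201 1.66% and that of Lars2-205 13.5%. In the first, Lars2-205 held 0.0111% of counts and 0.0881% of posterior mean TPM. Gm26917-202 held 96.0% of TPM in the second quantification, against 75.2% of TPM and 92.7% of estimated counts in the first. The run shared by Lars2 and Gm15564 was 52 bases under each alternative. Genes with a range of at least 2-fold numbered 1082, and 9293 with no filter on low values. Genes at least 2-fold higher in the second quantification numbered 441, and 49 from 100 counts. With 3 libraries, an uneven level of 1 library cannot be set against the usual spread between mice, and Gm15564 rested on 2 to 4 counts in the first quantification.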
